A study of Mus musculus with 27 samples.

Results

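Nppa, Nppb and Ankrd1 were followed as 3 of the 19938 genes measured in mouse fibroblast cultures that were being converted towards cardiomyocytes. The members were taken by gene symbol, each from a probe set that carries that symbol alone, and each had 1 such probe set, so no choice between probe sets was made. RNA from 27 cultures, in 9 groups of 3, was hybridised to Affymetrix Mouse Gene ST arrays at day 3, and all values are deposited log2 intensities, on which a difference of 1 is a doubling of signal. Per the labels, the 3 cultures of a group were independent biological replicates.

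Mouse embryonic fibroblasts (MEFs) were prepared from embryos and cardiac fibroblasts (CFs) from adult hearts. HNGMT cultures were transduced with separate lentiviruses, switched on by doxycycline through the transactivator rtTA, that carry the heart regulators Hand2, Gata4, Nkx2-5, Tbx5 and Mef2c, so that cells of one culture can differ in the factors they received. The protocol also gave the cultures an rtTA virus and a reporter virus in which the Troponin T promoter drives the calcium sensor GCaMP, and a medium with doxycycline. The 0TF MEFs, which received no transcription factor, are called empty vector in one label and untransduced in the protocol text, so it is not settled which viruses they carried. MEFs with 0TF and MEFs with HNGMT were each kept in DMSO vehicle, in 2 ng/mL TGFβ1, or in 0.5 µM SB431542 (SB), an inhibitor of the TGFβ type I receptor kinase. All CF groups carried HNGMT and were kept in DMSO, in 2 ng/mL TGFβ1 or in 5 µM SB, a higher dose than in MEFs. No CF group without factors was analysed here, and the protocol text for the CF samples describes MEFs.

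Nppa encodes the precursor of atrial natriuretic peptide and Nppb that of B-type natriuretic peptide, hormones that heart muscle releases when it is stretched. Both act through the receptor guanylate cyclase Npr1, which makes cyclic GMP, and promote salt excretion and relaxation of vessels. The embryonic heart muscle expresses both genes, the adult ventricle reduces Nppa strongly, and both return when the heart is overloaded, which makes them standard markers of the fetal and stress program. Ankrd1 encodes the cardiac ankyrin repeat protein, which sits on titin in the sarcomere and also enters the nucleus, where it affects transcription. It responds to stretch in muscle and is known outside the heart as a target of TGFβ, Yap and Tead.

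The promoters are shown because each gene differed strongly between cultures with and without the factors, and families of those factors have short recognition motifs. Each sequence is RefSeq's window of 300 bases in GRCm38.p6, from 250 bases before to 50 bases after the transcript start, read 5′ to 3′ along the gene, and all 3 members were found in the table. Nppa lies on the plus strand with its window at chr4:148000472-148000771. The Nppb window, also on the plus strand, is chr4:147985650-147985949, and its start lies inside the gene's annotated span. The Ankrd1 window is chr19:36119795-36120094 on the minus strand. Capitals mark matches on either strand to any of the motifs named in the next paragraph.
Nppa: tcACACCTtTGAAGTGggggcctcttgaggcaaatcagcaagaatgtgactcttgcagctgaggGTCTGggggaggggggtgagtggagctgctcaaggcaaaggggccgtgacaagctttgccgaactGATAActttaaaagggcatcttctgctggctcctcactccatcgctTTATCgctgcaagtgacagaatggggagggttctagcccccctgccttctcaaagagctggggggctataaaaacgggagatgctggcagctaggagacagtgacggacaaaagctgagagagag
Nppb: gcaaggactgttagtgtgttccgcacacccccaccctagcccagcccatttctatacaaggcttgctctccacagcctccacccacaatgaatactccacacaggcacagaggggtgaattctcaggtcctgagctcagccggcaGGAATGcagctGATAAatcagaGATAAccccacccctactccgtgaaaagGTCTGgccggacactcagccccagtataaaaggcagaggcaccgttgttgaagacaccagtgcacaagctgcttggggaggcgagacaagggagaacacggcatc
Ankrd1: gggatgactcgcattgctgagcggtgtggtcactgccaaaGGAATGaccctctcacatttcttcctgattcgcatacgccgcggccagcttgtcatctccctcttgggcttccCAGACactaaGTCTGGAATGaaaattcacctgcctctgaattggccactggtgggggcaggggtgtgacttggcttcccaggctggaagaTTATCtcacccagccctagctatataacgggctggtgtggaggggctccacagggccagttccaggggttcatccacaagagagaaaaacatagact

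The motifs searched were GATAA for GATA factors, TNAAGTG for Nkx2-5, AGGTGT for T-box factors, the MEF2 site, the CArG box of Srf, CATCTG for Hand factors, CATTCC for Tead (MCAT), CAGAC for Smad and TGANTCA for AP-1. The Nppa window held GATA matches beginning at -121 and -75 bases from the start, a T-box match at -248 beside an Nkx2-5 match at -241, and a Smad match at -186. In the Nppb window, GATA matches began at -94 and -83, an MCAT match at -105 and a Smad match at -55. The Ankrd1 window held MCAT matches at -210 and -123, Smad matches at -137 and -127 and a GATA match at -47, and the Smad match at -127 shares a base with the MCAT match at -123. The MEF2, CArG, CATCTG and AP-1 patterns were not among the letters of the 3 windows. Short motifs are common: of 32851 promoter windows, 25.4% held GATAA, 49.6% CAGAC, 14.7% CATTCC, 13.7% AGGTGT, 11.5% TNAAGTG, 17.2% CATCTG, 7.81% TGANTCA, 3.19% the MEF2 site and 1.63% the CArG box. A GATA match was therefore the one kind, besides Smad, found in all 3 windows, and a match does not show that a factor was bound.

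**Figure D1:**
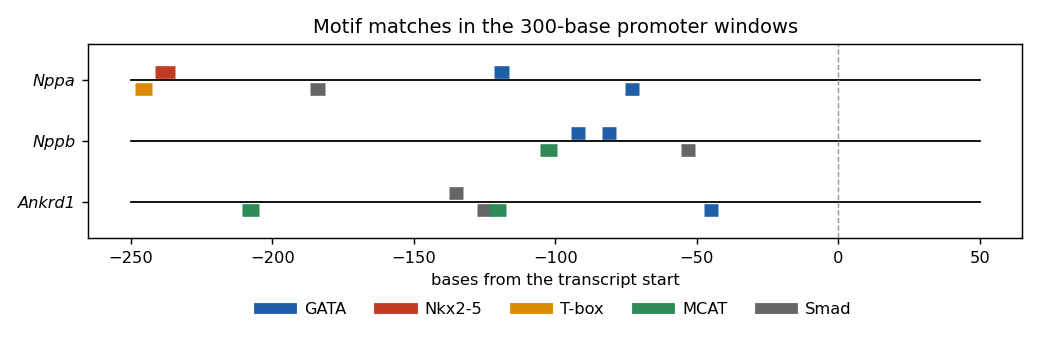
Motif matches in the 300-base promoter windows of Nppa, Nppb and Ankrd1 against distance in bases from the transcript start (dashed line), with plus-strand matches above and minus-strand matches below each line. GATA and Smad matches occur in all 3 windows, MCAT matches in Nppb and Ankrd1, and the T-box and Nkx2-5 matches in Nppa.

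A few properties of the arrays bear on all of the values. The delivered factors could be followed through Hand2, whose level was 8.77 to 9.30 on the 0TF arrays and 11.57 to 11.77 on the HNGMT MEF arrays. The probe sets of the other factors did not show delivery, with HNGMT minus 0TF differences in DMSO of 0.35 for Gata4, 0.01 for Nkx2-5, -0.57 for Mef2c and -0.94 for Tbx5, and the study's own assays for them were directed at human sequences. Array medians were 7.83 to 7.91 in MEFs and 7.36 to 7.43 in CFs, so no level was tested between the cell types, where cell type and any difference between the 2 sets of arrays cannot be told apart. The mean of 14 fibroblast markers was 11.74 to 12.73 in MEFs and 10.47 to 11.10 in CFs. The CF arrays also carried high levels of 12 endothelial markers such as Cdh5 and Pecam1, with means of 9.71 to 11.36 against 7.37 to 7.72 in MEFs. The third SB culture of CFs stood apart from its replicates, and the tests of the members in CFs are given with and without it.

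In DMSO, all 3 genes rose with HNGMT in MEFs, and Nppa rose more than any other gene on the array. Nppa was 6.94, 7.15 and 7.0 in 0TF cultures and 12.87, 12.82 and 12.81 in HNGMT cultures. Every HNGMT culture was therefore far above every 0TF culture, with a log2 fold change of 5.81 (SE 0.08, n = 3 per group, limma adjusted p = 1.06e-18), a 55.9-fold difference that ranked 1 of 19938. Genes were called at an adjusted p under 0.05 with a fold of at least 1.5 in MEFs, and 9.08% of all genes were called in this comparison. How many of all genes have groups that do not overlap was not counted, in this or any later comparison. In these bulk cultures, more cells that express a gene and more RNA per cell cannot be told apart.

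Nppb, the neighbouring peptide gene, was 7.36, 7.09 and 7.12 without factors and 10.45, 10.39 and 10.45 with HNGMT. The groups did not overlap, and the log2 fold change was 3.24 (SE 0.10, adjusted p = 2.02e-14), or 9.44-fold, at rank 18 from the top. Ankrd1 was 7.50, 7.50 and 7.76 without factors and 12.53, 12.66 and 12.60 with HNGMT. It differed by 5.01 (SE 0.09, adjusted p = 4.33e-17), or 32.2-fold, and ranked 3 from the top. Without factors, Nppa lay between the 32.9 and 38.8 percentiles of the probe sets on its array and Nppb between 31.5 and 42.4. Ankrd1 lay between 42.3 and 48.3 in 0TF cultures with DMSO or SB. No detection calls were used here, so it is not known whether any of these transcripts was present there at all. The folds are relative to that dim signal. The same cultures showed a higher cardiomyocyte marker mean, 7.72 to 7.82 over 12 genes in 0TF against 8.91 to 8.98 in HNGMT, with 7 of the 12 rising. The mean of 8 smooth muscle and myofibroblast markers went from 9.38 to 9.48 up to 10.66 to 10.74 (6 of 8 rose), and that of 14 fibroblast markers from 12.66 to 12.72 down to 12.24 to 12.26 (5 of 14 fell). The part of these shifts in the members' results was not tested.

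**Figure D2:**
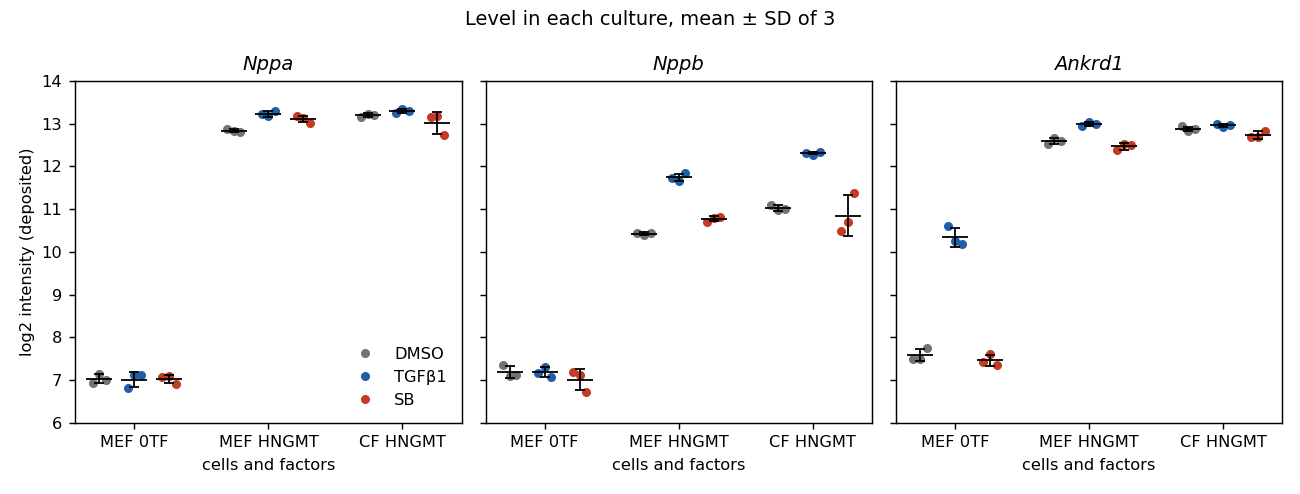
Log2 intensity of Nppa, Nppb and Ankrd1 in each of the 27 cultures (points), by cells, factors and treatment, with the mean and SD of 3 cultures in black. The 0TF group means lie between 7.01 and 7.59 except Ankrd1 with TGFβ1 at 10.34 ± 0.22, and Nppb is the member whose TGFβ1 groups stand clear of DMSO and SB with HNGMT in both cell types.

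The factors raised the members under the other treatments too. With SB, where 9.85% of genes were called, Nppa was 7.07, 7.09 and 6.91 in 0TF and 13.17, 13.14 and 13.02 in HNGMT cultures, a difference of 6.09 (adjusted p = 2.4e-19). Nppb differed by 3.77 (adjusted p = 1.75e-15), from 7.19, 7.11 and 6.73 to 10.71, 10.80 and 10.82. Ankrd1 went from 7.42, 7.61 and 7.36 to 12.38, 12.53 and 12.51, a difference of 5.01 (adjusted p = 2.82e-17), the same size as in DMSO. With TGFβ1, where 10.3% of genes were called, the factor effect was 6.22 for Nppa (adjusted p = 3.06e-19) and 4.56 for Nppb (adjusted p = 1.54e-16). For Ankrd1 it was 2.65 (adjusted p = 1.18e-13), from 10.60, 10.26 and 10.18 in 0TF to 12.95, 13.04 and 13.00 in HNGMT cultures.

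TGFβ1 separated Ankrd1 from the peptide genes in MEFs without factors. Ankrd1 was 7.50, 7.50 and 7.76 in DMSO and 10.60, 10.26 and 10.18 with TGFβ1, so each treated culture lay above each control. The log2 fold change was 2.76 (SE 0.09, adjusted p = 8.08e-14), or 6.77-fold, and ranked 11 of 19938 from the top in a comparison in which 10.4% of genes were called. Nppa was 6.81, 7.11 and 7.11 with TGFβ1, overlapping its controls, with a difference of -0.02 (95% interval -0.18 to 0.14, adjusted p = 0.855). Nppb was 7.17, 7.31 and 7.08, with a difference of 0.00 (95% interval -0.21 to 0.20, adjusted p = 0.986). The mean of 8 smooth muscle and myofibroblast markers moved with Ankrd1, from 9.38 to 9.48 in DMSO to 10.16 to 10.29 with TGFβ1. Of the 8 markers, 5 rose and 1 fell. The part of this shift in the Ankrd1 result was not tested.

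With HNGMT the pattern changed, and Nppb became the member that TGFβ1 raised. Nppb was 10.45, 10.39 and 10.45 in DMSO and 11.72, 11.67 and 11.84 with TGFβ1, a log2 fold change of 1.32 (SE 0.10, adjusted p = 6.01e-09), or 2.49-fold, where 5.77% of genes were called. Nppa was 12.87, 12.82 and 12.81 in DMSO and 13.22, 13.17 and 13.30 with TGFβ1. The groups did not overlap, but the difference of 0.40 (adjusted p = 0.00039) was under the 1.5-fold threshold and was not called. Ankrd1 was 12.95, 13.04 and 13.00 with TGFβ1, which is 0.40 above DMSO (adjusted p = 0.00242) and also under the threshold. The highest value of any probe set on the MEF arrays was 14.52 to 14.64, and whether the closeness of Nppa and Ankrd1 to that value reduced their differences was not tested.

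The change in the TGFβ1 effect between 0TF and HNGMT was tested as an interaction, which called 7.45% of genes. The Nppb effect was larger with HNGMT by 1.32 (SE 0.14, adjusted p = 7.47e-07). The Ankrd1 effect was smaller with HNGMT by a difference of -2.36 (SE 0.13, adjusted p = 3.49e-10), which ranked 10 of 19938 from the lowest. The Nppa difference of 0.42 (SE 0.11, adjusted p = 0.0056) passed the adjusted p but not the fold. On the log2 scale the 3 genes thus differed in direction: the response of one grew, that of another shrank, and the third had a small difference that was not called. The Ankrd1 effects started from different DMSO means, 7.59 in 0TF and 12.59 in HNGMT cultures. A smaller log2 effect from a higher level need not be a smaller rise in signal. Whether the high level of Ankrd1 with HNGMT reduced its effect there was not tested. Nppa and Nppb were dim in 0TF cultures, and whether a TGFβ1 effect on them was hidden there was not tested.

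**Figure D3:**
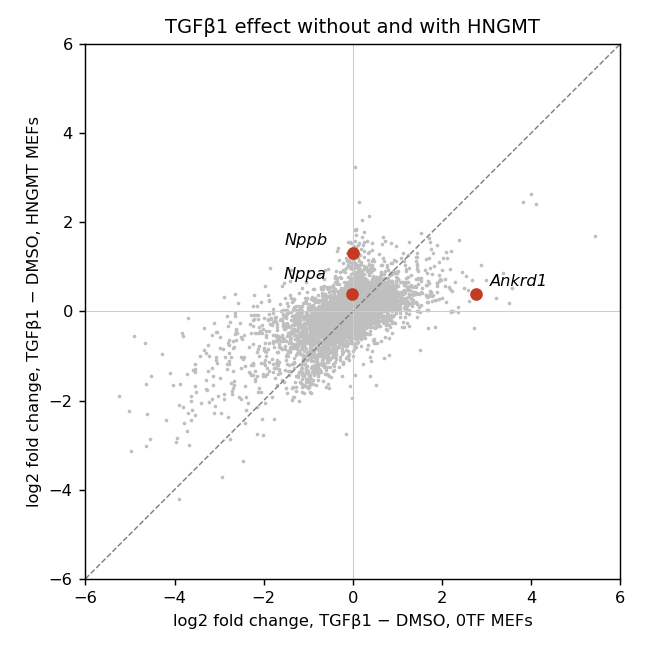
Log2 fold change of TGFβ1 against DMSO in 0TF MEFs (horizontal) and HNGMT MEFs (vertical) for all 19938 genes in grey and the 3 members in red, with the line of equal effects dashed. Ankrd1 lies far to the right at 2.76 and 0.40, and Nppb lies above the origin at 0.00 and 1.32.

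SB, set against the same DMSO cultures as TGFβ1, gave no called change of the members in MEFs. Without factors, where 2.4% of genes were called, the differences were -0.01 for Nppa (95% interval -0.17 to 0.15), -0.18 for Nppb (-0.39 to 0.02) and -0.12 for Ankrd1 (-0.32 to 0.07), with adjusted p values of 0.972, 0.273 and 0.489. With HNGMT, where 0.823% of genes were called, Nppa was 13.17, 13.14 and 13.02 against 12.87, 12.82 and 12.81 in DMSO, a difference of 0.27 (95% interval 0.11 to 0.43, adjusted p = 0.0342). Nppb was 10.71, 10.80 and 10.82 against 10.45, 10.39 and 10.45, a difference of 0.35 (95% interval 0.15 to 0.56, adjusted p = 0.0332). For both genes every SB culture was above every DMSO culture, but the share of all genes that separate in this way was not counted. Each difference was under 1.5-fold, and neither p was stable. Over the alternatives the adjusted p ranged from 4.13e-05 to 0.151 for Nppa and from 0.000816 to 0.289 for Nppb. For Nppb it was above 0.05 in all 6 fits that left out 1 culture (0.056 to 0.114). Ankrd1 overlapped between SB and DMSO, with a difference of -0.12 (adjusted p = 0.651). The second SB culture had the highest cardiomyocyte marker mean, 9.64 against 9.18 and 9.20, while its Nppa and Nppb values lay between those of its replicates.

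The SB effect with HNGMT minus that with 0TF, for which 1.96% of genes were called, was 0.53 for Nppb (SE 0.14, adjusted p = 0.0189), under the fold threshold. It was 0.28 for Nppa (adjusted p = 0.139) and 0.01 for Ankrd1 (adjusted p = 0.992). Its adjusted p was lost with all 27 arrays in one fit (0.214) and without the first 0TF DMSO culture (0.45, adjusted p = 0.0608). Leaving out one culture put the Nppb value between 0.39 and 0.62. It was lowest without the third 0TF SB culture, in which Nppb was 6.73 against 7.19 and 7.11 in its replicates. The difference was called without the second 0TF DMSO culture (0.59), without the first 0TF SB culture (0.62) or without the second 0TF SB culture (0.59).

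SB was also set directly against TGFβ1, the receptor blocked against the receptor driven. In 0TF MEFs, where 12.4% of genes were called, Ankrd1 was lower with SB by a log2 fold change of -2.88 (SE 0.09, adjusted p = 2.78e-14), while Nppa differed by 0.01 (adjusted p = 0.908) and Nppb by -0.18 (adjusted p = 0.137). In HNGMT MEFs, where 7.36% were called, the called member was Nppb, with a difference of -0.96 (SE 0.10, adjusted p = 2.65e-07). Ankrd1 differed there by -0.52 (adjusted p = 0.000208), with groups that did not overlap and a fold under the threshold, and Nppa by -0.12 (adjusted p = 0.236).

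**Figure D4:**
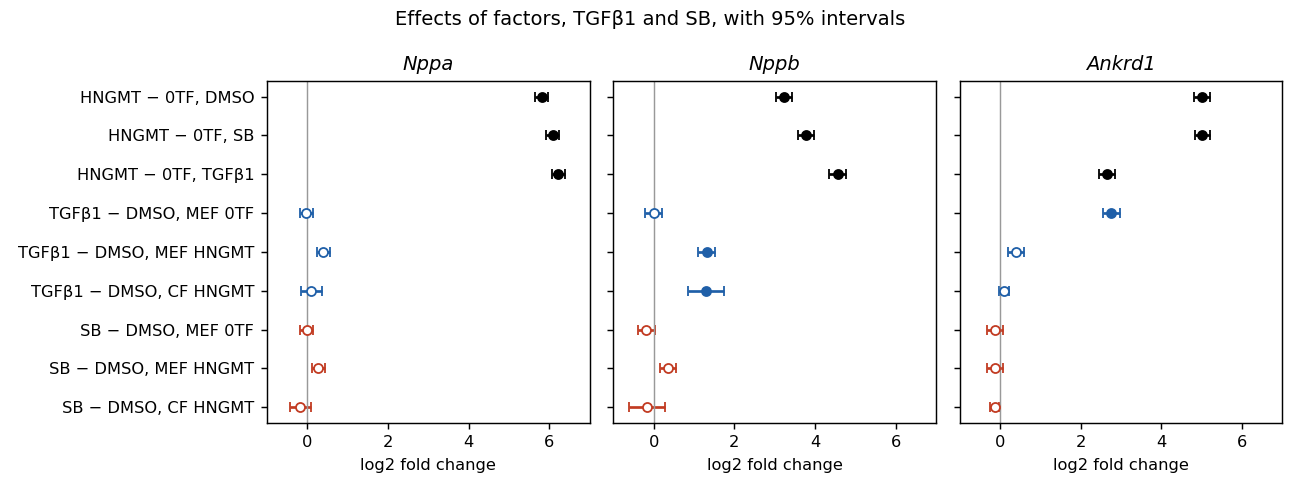
Log2 fold changes with 95% intervals for the effects of HNGMT (black), TGFβ1 (blue) and SB (red) on each member, with filled points for called changes and open points for the rest. The 9 factor effects are all called, TGFβ1 is called for Ankrd1 in 0TF MEFs and for Nppb in HNGMT MEFs and CFs, and no SB effect against DMSO is called.

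In CFs with HNGMT the TGFβ1 response of Nppb had much the same size as in MEFs with HNGMT. Nppb was 11.10, 10.97 and 11.00 in DMSO and 12.32, 12.28 and 12.33 with TGFβ1, with a wide gap between the groups. The log2 fold change was 1.29 (SE 0.20, 95% interval 0.84 to 1.74, adjusted p = 0.00639), or 2.44-fold, where 5.32% of genes passed the thresholds set for CFs, the same adjusted p with a fold at least 25% above 1. Nppa was 13.16, 13.24 and 13.21 in DMSO and 13.26, 13.35 and 13.31 with TGFβ1, a difference of 0.10 (adjusted p = 0.717). Ankrd1 was 12.94, 12.83 and 12.87 in DMSO and 13.00, 12.93 and 12.97 with TGFβ1, with overlapping groups and a difference of 0.09 (95% interval -0.03 to 0.21, adjusted p = 0.395). The endothelial marker mean was 11.10 to 11.21 in DMSO and 10.55 to 10.60 with TGFβ1, and the smooth muscle and myofibroblast mean went from 10.67 to 10.71 up to 11.07 to 11.09. The part of either in the Nppb result was not tested. The third SB culture enters this test through the shared spread, and without it the Nppb value of 1.29 had an adjusted p of 4.89e-06 (1.6e-07 to 0.036 over all alternatives), Nppa (0.10) and Ankrd1 (0.09) were still not called, and 10.8% of genes were called.

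The TGFβ1 effect in CFs minus that in HNGMT MEFs, at one TGFβ1 dose, was -0.03 for Nppb (SE 0.21, 95% interval -0.46 to 0.40, adjusted p = 0.959). It was -0.29 for Nppa (95% interval -0.57 to -0.02, adjusted p = 0.162) and -0.31 for Ankrd1 (adjusted p = 0.1), and 4.38% of all genes were called. Without the third SB culture 5.16% were called and still none of the members, though the adjusted p for Nppa was 0.0297 (6.14e-06 to 0.302 over all alternatives). These intervals leave room for differences of some size between the cell types.

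With SB in CFs, the third culture decided what could be said of Nppb. Nppb was 10.48, 10.69 and 11.38 with SB against 11.10, 10.97 and 11.00 in DMSO, so the first 2 SB cultures lay below the controls and the third above them. The difference was -0.17 (SE 0.20, adjusted p = 0.976) with all 3, and 0.241% of genes were called. Without the third SB culture it was -0.44 (SE 0.07, adjusted p = 0.014) and was called, with adjusted p from 0.000154 to 0.998 over all alternatives, and 1.89% of genes were called in that fit. Nppa was 13.16, 13.19 and 12.73 with SB, a difference of -0.18 (adjusted p = 0.942) that became -0.03 without the third culture. Ankrd1 was 12.68, 12.70 and 12.84, a difference of -0.14 (adjusted p = 0.689), or -0.19 without that culture, and neither gene was called either way.

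The third SB culture was below both of its replicates for 11 of 12 endothelial markers, with a median difference of -1.82, and its endothelial mean was 9.71 against 11.34 and 11.36. It was above both for 11 of 14 fibroblast markers (median 0.55) and below both for 9 of 12 cardiomyocyte markers (median -0.22). Its mean of 7 epicardial markers was 9.47 against 8.41 and 8.41. Its mean of 8 smooth muscle and myofibroblast markers was 9.92 against 10.41 and 10.49. The part of these differences in its high Nppb and low Nppa was not tested. Against TGFβ1, where 7.86% of genes were called, Nppb was lower with SB by a log2 fold change of -1.46 (SE 0.20, adjusted p = 0.00214), and the value was -1.72 without the third SB culture, where 14.7% of genes were called. Ankrd1 differed by -0.23 (adjusted p = 0.027) and Nppa by -0.28 (adjusted p = 0.183), or by -0.28 and -0.13 without that culture, and neither was called either way. The SB effects in CFs and MEFs were taken at different doses and are not compared: for Nppb they were -0.17 at 5 µM in CFs and 0.35 at 0.5 µM in HNGMT MEFs.

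**Figure D5:**
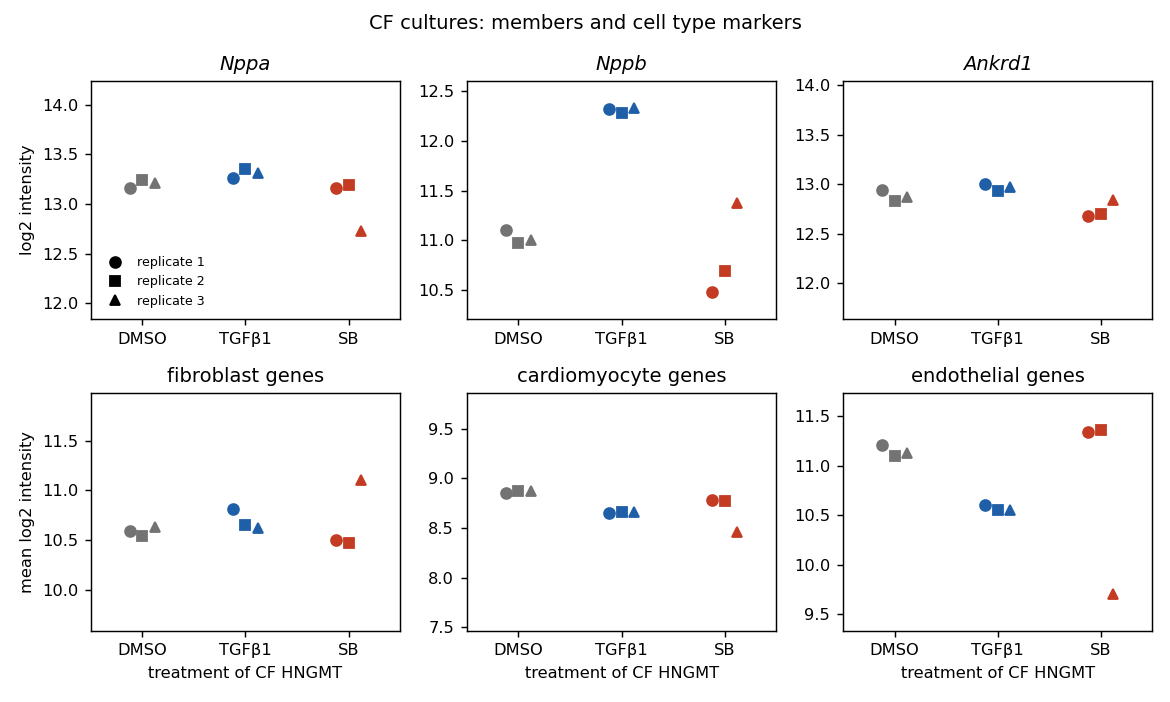
Log2 intensity of the members (top) and mean log2 intensity of fibroblast, cardiomyocyte and endothelial marker genes (bottom) in each of the 9 CF cultures, by treatment, with a symbol for each replicate and every panel spanning the same width of scale. The third SB culture (red triangle) is high for Nppb at 11.38 and low for Nppa at 12.73 and for the endothelial mean at 9.71, and all TGFβ1 cultures are high for Nppb.

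Ordered by level within MEFs, Nppa was highest with HNGMT and TGFβ1 (13.23 ± 0.07, SD, n = 3), then with HNGMT and SB (13.11 ± 0.08) and HNGMT and DMSO (12.84 ± 0.03), and the 0TF groups followed at 7.03 ± 0.10 (DMSO), 7.02 ± 0.10 (SB) and 7.01 ± 0.17 (TGFβ1). The first pair of neighbours (adjusted p = 0.236) and the 0TF neighbours (0.972 and 0.908) could not be told apart. Nppb had the same order with HNGMT, at 11.74 ± 0.09, 10.78 ± 0.06 and 10.43 ± 0.03, and neighbours there differed at adjusted p = 2.65e-07 and 0.0332, while the 0TF groups at 7.19 ± 0.15, 7.19 ± 0.12 and 7.01 ± 0.25 did not separate. Neighbours were compared without a fold threshold. The steps between SB and DMSO with HNGMT, for Nppa (limma adjusted p = 0.0342) and Nppb (0.0332), were under 1.5-fold, and neither p was stable, as given above. Ankrd1 was the member with a step between: 12.99 ± 0.04 with HNGMT and TGFβ1, 12.59 ± 0.07 with DMSO, 12.47 ± 0.08 with SB, then 10.34 ± 0.22 in 0TF cultures with TGFβ1, and 7.59 ± 0.15 and 7.46 ± 0.13 in 0TF cultures with DMSO and SB. Its HNGMT groups with DMSO and SB could not be told apart (adjusted p = 0.651). Its 0TF cultures with TGFβ1 were 2.13 below the lowest HNGMT group (adjusted p = 2.33e-12) and 2.76 above the 0TF controls. In CFs the order was TGFβ1, DMSO and SB for all 3 genes, and the Nppb step of 1.29 from DMSO to TGFβ1 was the one called.

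The other genes of the natriuretic peptide pathway moved in both directions. With HNGMT in DMSO, 1 of 14 rose, 3 fell and 10 did not pass, with a median difference of 0.05 beside -0.01 over all genes. Of all genes, 9.08% were called in this comparison. Pde9a, a phosphodiesterase that breaks down cyclic GMP, rose by 1.72, and Npr3, the receptor that clears the peptides (-1.12), Pde3a, a phosphodiesterase that cyclic GMP inhibits (-0.86), and Mme, the peptidase neprilysin that degrades them (-1.15), fell. Npr1, the signalling receptor for both hormones, differed by 0.05, Corin, the protease that cuts the atrial peptide precursor, by 0.46, and Nppc, the gene of the C-type peptide, by -0.04, none of them called. TGFβ1 in 0TF MEFs lowered Mme by a log2 fold change of -4.66 and Npr3 by -1.31 and raised Prkg2, a cyclic GMP-dependent kinase, by 0.90. Thus 1 of 14 rose and 2 fell, beside 10.4% of all genes called. With HNGMT, TGFβ1 lowered Npr3 (-1.04), Mme (-0.70) and Pde9a (-0.64) and raised Pde2a, another phosphodiesterase, by 0.62. That was 1 rising and 3 falling of 14, where 5.77% of all genes were called. In CFs, TGFβ1 lowered 1 of 14, the kinase gene Prkg1 (-0.61), a count that became 1 rising and 6 falling without the third SB culture, as the share of all genes called went from 5.32% to 10.8%.

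Of 11 relatives and partners of Ankrd1, 4 rose with HNGMT in DMSO, none fell, and the median was 0.08, where 9.08% of all genes were called. Those that rose are named here. These were Casq2 (5.58), the calsequestrin that stores calcium in cardiac muscle and whose protein is known to bind the Ankrd1 protein, Des (3.25), the muscle intermediate filament desmin, Ttn (0.89), the titin spring on which Ankrd1 sits, and Trim63 (0.89), a ubiquitin ligase of the sarcomere. The family members Ankrd2 and Ankrd23, which also bind titin, differed by -0.04 and -0.22 and were not called. TGFβ1 raised 1 of the 11 in 0TF MEFs, Des by 0.62, and 1 in HNGMT MEFs, Ttn by 0.74, and none was called in CFs. Of all genes, 10.4%, 5.77% and 5.32% were called in these comparisons, so a count of 1 is near the share of all genes.

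Among 23 measured regulators that act on such promoters, 3 rose and 2 fell with HNGMT in DMSO, with a median of 0.01. Of all genes, 9.08% were called there. Myocd, the coactivator myocardin, rose by 3.18, the delivered Hand2 by 2.48 and the repressor Tbx2 by 0.64, while Nfatc4 (-0.65) and the signal of the Tbx5 probe set (-0.94) fell. Tbx5 was also delivered, but its probe set did not show delivery, so this value does not give its total level. TGFβ1 raised none of the 23 in 0TF MEFs and lowered 5, where 10.4% of all genes were called. The strongest by p were Mef2c (-1.07), Jarid2 (-0.86), Tbx5 (-0.87) and Hopx (-1.04). With HNGMT, the arm in which Nppb rose, TGFβ1 lowered Myocd (-0.72) and Hopx (-0.60), beside 5.77% of all genes called. In CFs TGFβ1 lowered Tbx20 (-1.04), Gata4 (-0.48) and Hopx (-0.47) and raised Hey2 (0.42), where 5.32% of all genes were called. Without the third SB culture 1 rose and 8 fell (10.8% of all genes). SB raised 1 of the 23 in HNGMT MEFs, Myocd by 0.67, where 0.823% of all genes were called.

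Of 15 genes of Hippo and mechanical signalling, a pathway that acts through Tead, 2 rose with HNGMT in DMSO and none fell: Ccn2, a matrix protein gene that Yap and TGFβ both control, by 0.64 and Tead4 by 0.72. That share is close to the 9.08% called over all genes. TGFβ1 raised 3 of the 15 in 0TF MEFs, Ccn2 by 1.05, Fjx1 by 1.19 and Amotl2 by 0.68, where 10.4% of all genes were called and Ankrd1 rose. None of the 15 was called for TGFβ1 in HNGMT MEFs, where 5.77% of all genes were called and Ankrd1 was not. In CFs 3 rose, Fjx1 (0.54), Tead4 (0.62) and Ccn2 (0.38), where 5.32% of all genes were called and Ankrd1 was not. Without the third SB culture, where 10.8% of all genes were called, 5 rose and 1 fell. Whether these genes and Ankrd1 move together was not tested. SB lowered Ccn2 (-1.24) in HNGMT MEFs, the gene of the list that passed there, beside 0.823% of all genes.

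The fetal and stress program, to which the members belong by reputation, rose in part. Of 17 other measured genes, 9 rose and 1 fell with HNGMT in DMSO, where 9.08% of all genes were called. The median was 0.97 beside -0.01 for all genes. List members with the smallest p were Tnni1 (2.60), the slow and fetal troponin I, Rcan1 (1.31), a calcineurin regulator, Fhl2 (0.98), a LIM protein, and Myl7 (1.51), the atrial light chain. TGFβ1 raised 7 and lowered 1 in 0TF MEFs (10.4% of all genes called), led by Enah (1.30), a regulator of actin, Uchl1 (1.79), Il6 (1.82) and Acta1 (2.01), the skeletal alpha actin that stressed ventricles express. In HNGMT MEFs (5.77% of all genes) it raised 5, led by Uchl1 (1.31), Il6 (1.02), Tnni1 (1.05) and Xirp1 (1.14), and lowered 3. In CFs (5.32% of all genes) it raised Xirp1 (1.19), Rcan1 (0.46) and Acta1 (0.58). Without the third SB culture 6 rose and 2 fell, again beside 10.8% of all genes. SB raised 3 in HNGMT MEFs (0.823% of all genes), Myl7 (0.60), Hcn4 (0.65), a pacemaker channel, and Actc1 (0.84), and 1 when the second SB culture was left out (0.802% of all genes).

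In CFs with SB, where 0.241% of all genes were called, 1 of the 17 fetal and stress genes was called, Xirp1 at -0.46. Of the 23 regulators 1 was called, Hey2 at -0.52, while none of the natriuretic peptide, Ankrd1 or Hippo genes was called. Without the third SB culture, where 1.89% of all genes were called, 2 of the 17 fell, 2 of the 14 natriuretic pathway genes rose and 1 of the 11 Ankrd1 partners fell.

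The genes most like each member were sought by Pearson's r over the 18 MEF arrays, among 2543 genes whose MEF group means spanned at least 1. The 0TF and HNGMT arrays form separate clusters, so these values mostly record that step, and r over the 9 HNGMT MEF arrays is given beside them as a description. Nppa was followed by Casq2 (0.998, then 0.44 within HNGMT), the heat shock protein gene Hspb7 (0.998, 0.69), Popdc2 (0.997, 0.88), Cpne5 (0.997, 0.82) and Smpx (0.997, 0.86). For Nppb they were Tnni1 (0.996, 0.99), Rpp25 (0.995, 0.95), Nfatc2 (0.994, 0.90), Abr (0.994, 0.98) and Coro6 (0.993, 0.92). For Ankrd1 they were Clcn5 (0.995, 0.69), Adarb1 (0.995, 0.68), Scarb2 (0.994, 0.88), B3galnt2 (0.992, 0.92) and Cd59a (0.992, 0.86). Over the 9 0TF arrays r was 0.98 to 0.99 for the genes of Ankrd1. It was -0.56 (Smpx) to 0.12 (Popdc2) for those of Nppa and -0.02 (Abr) to 0.62 (Nfatc2) for those of Nppb. Over the 9 CF arrays r was -0.79 (Popdc2) to 0.91 (Casq2) for Nppa and 0.45 (Tnni1) to 0.92 (Coro6) for Nppb. For Ankrd1 it was -0.38 (Scarb2) to 0.84 (Adarb1) there. Between members, Nppa and Nppb had r of 0.85 within the HNGMT MEF arrays and 0.31 over the 9 CF arrays, Nppb and Ankrd1 0.86 and 0.85, and Nppa and Ankrd1 0.49 and 0.28. All of these arrays share treatment groups.

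Nppb and Nppa are neighbours on chromosome 4 in GRCm38.p6, at chr4:147985786-147987205 and chr4:148000722-148002074, both on the plus strand and 13516 bases apart. The genes around the pair did not share their step with HNGMT in DMSO. Clcn6, a chloride transporter gene 2184 bases beyond Nppa, differed by -0.32, 2510039O18Rik by 0.00, Plod1 by -0.09 and Agtrap by -0.04, none of them called. Ankrd1 lies at chr19:36111965-36119844 on the minus strand. Its nearest measured neighbour, Rpp30, 7191 bases away, differed by 0.32 and Htr7 by 0.00, neither of them called, whereas Pcgf5 and Hectd2, 228484 and 434281 bases away on the other side, rose by 1.56 and 1.35. With TGFβ1 in 0TF MEFs, where Ankrd1 rose by 2.76, those 4 genes differed by 0.35 (Rpp30), 0.12 (Htr7), -0.49 (Pcgf5) and 0.48 (Hectd2), none of them called. With TGFβ1 in HNGMT MEFs, where Nppb rose, Plod1 differed by 0.39 and 2510039O18Rik by 0.14 on one side of the pair, Clcn6 by -0.20 and Agtrap by 0.43 on the other, none of them called. In CFs, where the fold threshold was lower, TGFβ1 raised Plod1 by 0.51.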

How the data were processed

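RNA of 18 MEF and 9 CF cultures was hybridised to Affymetrix Mouse Gene ST arrays, and the authors processed the scans with Affymetrix Microarray Suite and PartekGS. The submitters' processing notes name MAS5, and the normalization is not given in the sources used here. The authors deposited log2 intensities for 35556 probe sets, of which 21789 had 1 gene symbol, 1621 several and 12146 none. Symbols were updated by gene identifier through RefSeq, and each of 19938 genes was read from its brightest probe set on average. Groups were taken from the sample labels. In limma 3.58.1 (R 4.3.3), group means were fitted to the 18 MEF arrays (12 residual degrees of freedom) and to the 9 CF arrays (6), and comparisons of CF with MEF effects to all 27. Tests were two-sided, with Benjamini-Hochberg adjustment over all genes, called at an adjusted p under 0.05 and a fold of at least 1.5 (MEFs, and between cell types) or a fold 25% above 1 (CFs). The number of arrays limits the precision. The scripts were tested on simulated data. The members and gene lists were chosen with earlier results of these data known. Genes named were the members, up to 4 per list and comparison with the smallest p (plus the receptor, protease, peptide and family genes Npr1, Corin, Nppc, Ankrd2 and Ankrd23, chosen after their values were seen), the 5 genes most like each member and 2 measured neighbours per side. Des and Myocd of the smooth muscle list, Ttn and Nkx2-5 of the cardiomyocyte list stand in other lists too. Lists for leukocytes, skeletal muscle, epicardium and adipocytes were also measured. Alternatives were another set of arrays, a replicate block, another variance model, array weights, a filter at the 40th percentile, 2 normalizations, averaged probe sets, no fold threshold and each culture left out. Gene list counts without the third CF SB culture or the second SB culture of HNGMT MEFs, and TGFβ1 effects in CFs without the former, were added after seeing the data.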

Additional observations from a re-analysis of the deposited data

Results flagged for a closer look

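For 4 results the treatment effect in MEFs differed between cultures with and without HNGMT by a test of the difference itself. The TGFβ1 effect on Nppb was larger with HNGMT by 1.32 on the log2 scale, and that on Nppa by 0.42, the latter under the fold threshold. Both genes were dim in 0TF cultures, and whether an effect was hidden there was not tested. The TGFβ1 effect on Ankrd1 was smaller with HNGMT on the log2 scale, at -2.36. Ankrd1 was already high in DMSO with HNGMT (12.59), and whether that reduced its effect was not tested. The SB effect on Nppb was larger with HNGMT by 0.53, also under the fold threshold, and its adjusted p of 0.0189 became 0.214 with all arrays in one fit and 0.0608 without the first 0TF DMSO culture.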

How the results depend on the processing

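Over 45 results of the members, 718 of 732 alternatives kept the side of the thresholds, 14 passed them where the reported value had not, and no called value changed sign. Some alternatives could hardly move a call, so these counts overstate agreement. Each member had 1 probe set, so averaged probe sets left its values as they were. Having no fold threshold could add calls but not remove them. In 7 results that were not called, 27 alternatives had the other sign, with values of at most 0.09 in size. Without a fold threshold, 8 more results passed: SB in HNGMT MEFs for Nppa (0.27) and Nppb (0.35), TGFβ1 in HNGMT MEFs for Nppa (0.40) and Ankrd1 (0.40), SB against TGFβ1 for Ankrd1 in HNGMT MEFs (-0.52) and CFs (-0.23), and the change of effect with HNGMT for Nppb with SB (0.53) and Nppa with TGFβ1 (0.42). Array weights brought Nppb past the thresholds for the SB change of effect (0.66) and for SB in CFs (-0.48). Leaving out single cultures gave 0.39 to 0.62 for the first and -0.44 to 0.01 for the second.

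The counts of all genes called without a fold threshold were 8066 (HNGMT in DMSO), 8340 (in SB), 8782 (in TGFβ1), 3306 (SB, 0TF), 1471 (SB, HNGMT), 9350 (TGFβ1, 0TF), 7142 (TGFβ1, HNGMT), 10288 and 7671 (SB against TGFβ1, 0TF and HNGMT), 1681 and 6248 (changes of effect, SB and TGFβ1) and 3177 (CFs against MEFs), against 1810, 1964, 2045, 478, 164, 2074, 1150, 2470, 1468, 390, 1486 and 873. For SB in CFs the count of 48 became 306 with all arrays in one fit, 587 with array weights and 2 to 377 with a culture left out, the highest without the third SB culture. For TGFβ1 in CFs 1060 became 1999, 2373 and 617 to 2147, the highest without the third SB culture, and for SB against TGFβ1 in CFs 1567 became 3096 with weights and 1104 to 2932.

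With the replicate block, the count for SB in CFs was 15. Whether the replicate numbers pair the cultures was not tested. As a description, 7 of 18 MEF arrays and 5 of 9 CF arrays correlated best with their own number. Same-number r was -0.45 to 0.59 in MEFs and -0.25 to 0.65 in CFs. The block changed no call of a member.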

Other observations

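Several marker lists moved beside the members without being part of them. The mean of 6 adipocyte genes was 8.77 to 8.82 in 0TF MEFs with DMSO, 11.24 to 11.33 with SB and 7.91 to 8.0 with TGFβ1, while with HNGMT it was 8.54 to 8.62, 8.98 to 9.07 and 7.98 to 8.11. In the 0TF cultures with that high adipocyte mean, Nppa, Nppb and Ankrd1 had no called difference from DMSO. The mean of 7 epicardial genes was 8.57 to 8.59 in 0TF and 9.10 to 9.18 in HNGMT MEFs with DMSO. The mean of 9 skeletal muscle genes was 7.53 to 7.79 over the MEF groups and 7.07 to 7.30 in CFs, and that of 10 leukocyte genes 7.11 to 7.63 and 6.78 to 7.06.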
